A study of Mus musculus with 12 samples.

Results

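A set of 9 genes that define the hepatocyte, the main cell of the liver, were followed in mouse livers: the nuclear receptors Hnf4a and Nr5a2, the forkhead factors Foxa1, Foxa2 and Foxa3, the C/EBP factors Cebpa and Cebpb, and the homeobox factors Prox1 and Onecut1. They were chosen by name from the 57180 genes of the deposited tables, and all 9 were among the 19350 genes with enough reads to be tested. The data are RNA-seq profiles of 12 mouse livers, 3 from each sex of each genotype (Het or KO). All 12 mice lack Csa (Ercc8) and received AAV9-CSA, a vector that carries human CSA (ERCC8) behind the ubiquitous chicken β-actin promoter, into the brain ventricles as newborns. KO mice are the CX mice, taken when they reached the humane endpoint, and Het mice (Csa-/-;Xpa+/-) are littermates of the same age without signs of disease. The KO genotype is given as Csa-/-;Xpa+/+ in GEO's design text and in the study's methods, but CX mice are described in the study's results as lacking both Csa and Xpa, so the names KO and Het are used here. Disease stage and genotype cannot be told apart in this design, and there was no group without the vector or with intact Csa.

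Hepatocyte identity rests on a network of transcription factors that bind each other's genes and the same enhancers. FOXA proteins open compacted chromatin early in liver development, HNF4A activates a large share of hepatocyte-specific genes, and C/EBP alpha drives metabolic genes of the differentiated cell. C/EBP beta is induced by inflammatory signals and by liver injury, PROX1 and ONECUT1 (HNF6) act in hepatoblast growth and in the choice between hepatocyte and bile duct cell, and NR5A2 (LRH-1) controls bile acid and cholesterol genes.

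Between 30044812 and 43634073 estimated counts per liver were assigned to genes. Normalized counts are given as CPM, with each library brought to the same total after TMM scaling. Each log2 fold change, printed with its standard error (SE), is KO against Het from one edgeR quasi-likelihood fit to all 12 livers. P-values were adjusted by the Benjamini-Hochberg method over all 19350 genes, and a gene was called at an adjusted p under 0.05. Xpa, the gene that differs between the genotypes, was at 3.10 to 6.34 CPM in Het and 0.992 to 1.83 CPM in KO livers, which differ by a log2 fold change of -1.83 (SE 0.17, adjusted p = 6.26e-05). This lower level goes with CX mice lacking Xpa, as in the study's results, and not with Xpa+/+. Read counts alone do not establish a genotype. Reads counted on Ercc8, the gene that all mice lack, were at 5.10 to 8.68 CPM in Het and 14.8 to 33.997 CPM in KO livers, which differ by a log2 fold change of 1.62 (SE 0.17, adjusted p = 1.73e-04). All 20 hepatocyte markers had enough reads to be tested, and Het livers had a summed marker TPM of 33693 to 52276, and KO livers one of 49247 to 72379. In whole liver, fewer cells of a type and less RNA per cell cannot be told apart.

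The promoters of Cebpa and Foxa1, the factors that fell in KO livers, and of Hnf4a, the most abundant factor, are shown because the results turn on these genes. Each runs from 250 bases before the start of the Ensembl canonical transcript to the base before it, in GRCm39 with GENCODE M39, 5′ to 3′ on the strand of the gene. Capitals mark matches, on either strand, to the motifs named after the sequences.
Cebpa, chr7:34818478-34818727, plus strand: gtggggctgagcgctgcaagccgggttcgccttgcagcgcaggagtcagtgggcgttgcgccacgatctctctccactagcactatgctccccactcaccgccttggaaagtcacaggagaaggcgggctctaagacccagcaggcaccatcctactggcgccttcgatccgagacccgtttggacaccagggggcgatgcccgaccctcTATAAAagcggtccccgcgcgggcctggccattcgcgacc
Foxa1, chr12:57592945-57593194, minus strand: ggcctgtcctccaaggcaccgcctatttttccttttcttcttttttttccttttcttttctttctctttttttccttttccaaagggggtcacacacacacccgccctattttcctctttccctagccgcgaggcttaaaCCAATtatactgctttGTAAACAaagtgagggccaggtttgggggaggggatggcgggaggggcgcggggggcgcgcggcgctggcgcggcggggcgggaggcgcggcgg
Hnf4a, chr2:163388819-163389068, plus strand: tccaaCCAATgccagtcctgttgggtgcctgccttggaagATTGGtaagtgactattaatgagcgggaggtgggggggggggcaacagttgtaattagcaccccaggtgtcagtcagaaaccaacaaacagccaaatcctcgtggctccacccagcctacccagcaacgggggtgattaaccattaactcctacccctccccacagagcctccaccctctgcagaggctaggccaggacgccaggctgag
The capitals in Cebpa are a TATA box (TATAAA) at -40 to -35 from the start site. Those in Foxa1 are a CCAAT box (CCAAT) at -110 to -106 and a FOXA motif (TGTTTAC, on the minus strand relative to the gene) at -94 to -88. Those in Hnf4a are a pair of CCAAT boxes at -245 to -241 and -210 to -206, the latter on the minus strand relative to the gene. Over 21757 promoters of protein-coding genes of the same length, 11.9% held TATAAA, 36.5% CCAAT and 2.72% the FOXA motif. Each was counted on either strand and at any position. Of the 9 factors, 4 held TATAAA (Nr5a2, Foxa2, Foxa3 and Cebpa), 4 CCAAT (Hnf4a, Nr5a2, Foxa1 and Foxa3) and 1 the FOXA motif (Foxa1). Only in Foxa3 (-29 to -24) and Cebpa did TATAAA lie close to the start on the strand of the gene. In Nr5a2 (-113 to -108) and Foxa2 (-168 to -163) it lay farther upstream on the minus strand relative to the gene. An ONECUT motif (ATTGATT), held by 2.52% of all promoters, was found in Foxa2 alone among the 9. The C/EBP motif (TTGCNNAA, 9.34% of promoters), the HNF4A motif (CAAAGTCCA, 0.372%) and the NR5A2 motif (CAAGGTCA, 1.37%) had no match in any of the 9 windows, nor did the longer HNF1 motif, held by 0.0046% of promoters. Only exact matches were sought, so the lack of a match does not mean that a binding site is absent. No motif overlapped another in the sequences shown.

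The Cebpa gene (ENSMUSG00000034957.11, chr7:34818718-34821353) has a single exon in its canonical transcript, and the last bases of the promoter shown are the start of its other transcript. Foxa1 (ENSMUSG00000035451.8, chr12:57587414-57593702) has 2 exons, and the promoter shown lies in an intron of its other transcript. Hnf4a (ENSMUSG00000017950.17, chr2:163348728-163414830) has 10 exons and further transcripts that start upstream, so the promoter shown lies inside the gene, and its first bases are also an exon of another transcript. The other 6 factors lie at chr1:136770303-136888186 (Nr5a2, ENSMUSG00000026398.15), chr2:147884797-147889005 (Foxa2, ENSMUSG00000037025.12), chr7:18747209-18757471 (Foxa3, ENSMUSG00000040891.7), chr2:167530835-167532338 (Cebpb, ENSMUSG00000056501.4), chr1:189850232-189904637 (Prox1, ENSMUSG00000010175.14) and chr9:74769118-74800594 (Onecut1, ENSMUSG00000043013.11). The tables hold 1 value per gene, so starts of the same gene were not compared.

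Levels of different factors were compared in TPM, which divides by transcript length. Hnf4a was the most abundant factor in Het livers at 114.8 ± 28.5 TPM (SD, n = 6), followed by Cebpa at 77.8 ± 17.8. Cebpb, Foxa3, Prox1, Nr5a2 and Onecut1 came next with means from 13.2 to 24.2 TPM, in that order, and Foxa2 (7.50 ± 3.07) and Foxa1 (3.59 ± 1.81) were lowest. From Cebpb down to Foxa2, each factor differed from its neighbour in this order by less than the larger SD of the pair. In KO livers Hnf4a stayed first at 112.3 ± 29.6 TPM, whereas Cebpa (36.8 ± 10.8) and Cebpb (30.4 ± 12.8) were closer together than the spread of either. Nr5a2 stood above Prox1 in KO livers, but this gap was also within their spread. The effective transcript length of a factor in a liver, relative to that factor's mean over the 12 livers, stayed between 0.859 and 1.12, both found for Onecut1. The 9 factors together summed to 263 to 342 TPM in Het and 203 to 292 TPM in KO livers, so the ranges of the sum overlapped. Within males they did not, with 291 to 305 TPM in Het and 203 to 222 TPM in KO livers. Hnf4a made up 32.3 to 49.9% of that sum in Het and 40.9 to 54.9% in KO livers.

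Of the 9 factors, 2 fell in KO livers over both sexes, Cebpa and Foxa1, and none rose. Over all tested genes, 9.8% were called lower, 11.8% higher and 21.6% in either direction. The share of 2 in 9 (22.2%) is near the background in either direction and above that of genes called lower, but it rests on 2 genes. At an unadjusted p under 0.05, 5 of the 9 factors passed, Foxa3, Nr5a2 and Prox1 in addition, all lower, where 35.4% of all tested genes passed in either direction and 16.6% passed lower. Cebpa was the only factor with every KO liver below every Het liver, an order found for 4.64% of tested genes. The median log2 fold change of the 9 factors was -0.45, against 0.018 over all tested genes.

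**Figure D1:**
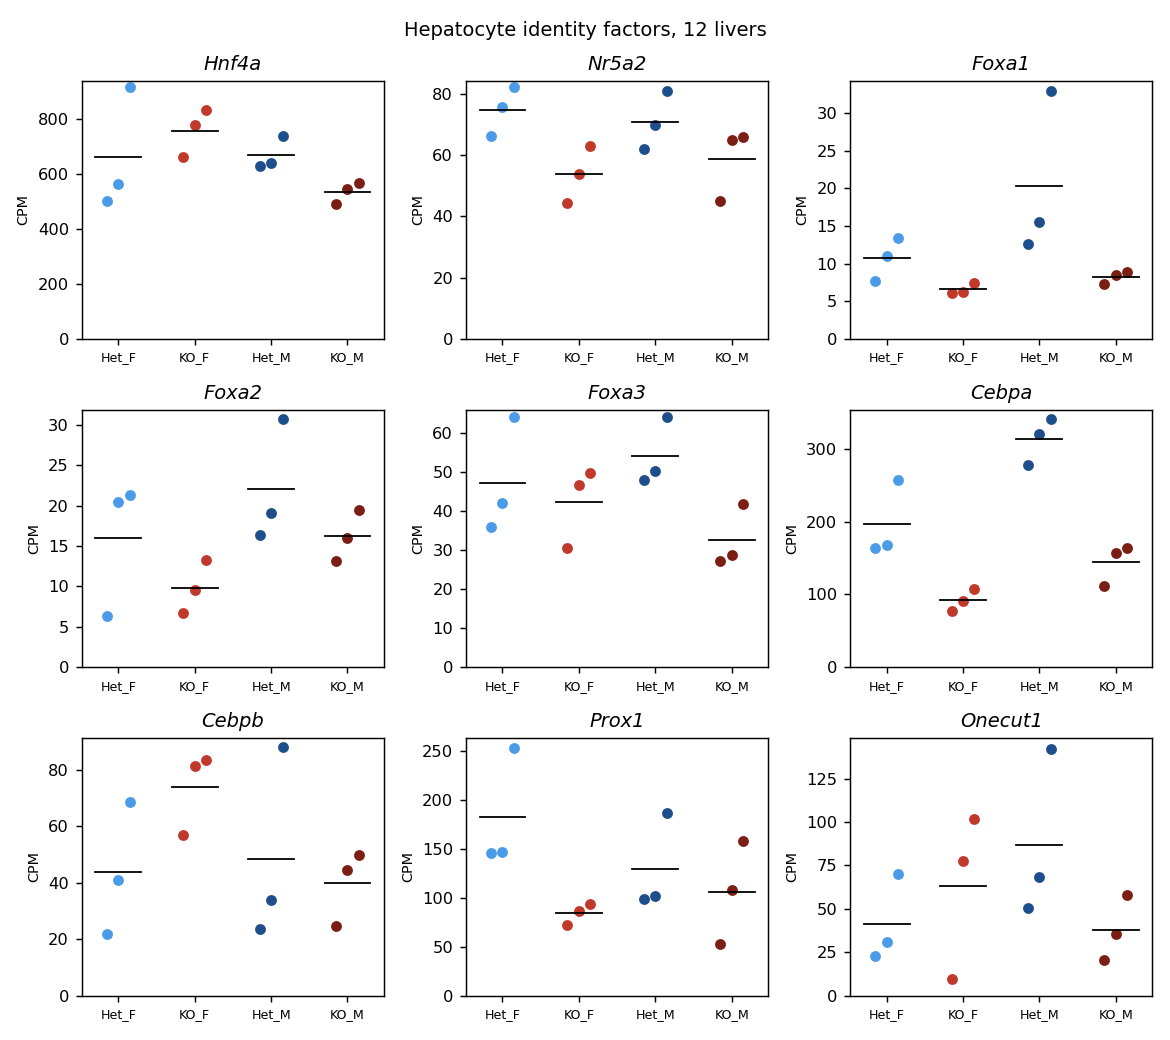
TMM-scaled CPM (y axis, linear, from 0) of each factor in the 12 livers, 1 point per liver in order of value within a group, with a line at the mean of the 3 livers. Cebpa lay between 77.8 and 163 CPM in KO livers and between 164 and 341 CPM in Het livers, whereas Hnf4a, Cebpb and Onecut1 overlapped widely.

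Cebpa encodes C/EBP alpha, a factor of metabolic gene expression and of growth arrest in mature hepatocytes. Its level was 168, 164 and 258 CPM in Het females, 278, 341 and 321 in Het males, 77.8, 107.8 and 91.6 in KO females and 163, 111.8 and 157 in KO males. The genotypes did not overlap, but the highest KO liver, a male, and the lowest Het liver, a female, differed by little. Within each sex the gap was wider. The log2 fold change was -1.10 (SE 0.15, adjusted p = 7.13e-04), with a 95% interval of -1.43 to -0.78, which is a KO level of 0.465 times the Het level. Females fell, with -1.09 (SE 0.21, adjusted p = 0.0129), and so did males, with -1.12 (SE 0.21, adjusted p = 0.0113). The difference between the sexes was -0.033 (SE 0.30, adjusted p = 0.984), with an interval of -0.68 to 0.62, which leaves room for a difference in either direction. Cebpa was called in both sexes together, in females and in males under each alternative setting and with each mouse left out. Gm45091, an unnamed gene on the opposite strand that overlaps Cebpa, was at 0.128 to 0.767 CPM in Het livers and 0.310 to 1.16 CPM in KO livers.

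Foxa1, Foxa2 and Foxa3 encode forkhead proteins with closely related DNA-binding domains, the first pair known for opening chromatin in the embryonic liver and Foxa3 as the most abundant of the family in the adult. Foxa1 was at 7.70, 11.04 and 13.4 CPM in Het females, 12.6, 32.9 and 15.5 in Het males, 6.05, 6.15 and 7.46 in KO females and 8.42, 7.24 and 8.84 in KO males. KO livers lay close together, from 6.05 to 8.84 CPM, and only the lowest Het liver, Het_F_111, reached into that range. Within each sex every KO liver lay below every Het liver, by little in females (7.46 against 7.70 CPM). Het_M_125 stood far above the other Het livers. The log2 fold change was -1.01 (SE 0.22, adjusted p = 0.00952) with an interval of -1.50 to -0.52. Without Het_M_125 it was -0.75, and the call held with each mouse left out in turn, at adjusted p of 0.00443 to 0.0241, as it did under each alternative setting. In males alone Foxa1 fell, with a log2 fold change of -1.31 (SE 0.32, adjusted p = 0.0318), and in females the value of -0.70 (SE 0.32, adjusted p = 0.170) did not pass. The call in males was lost without Het_M_125 (adjusted p = 0.0931), KO_M_118 (0.0927), KO_M_122 (0.0951) or KO_M_136 (0.0789), and the log2 fold change without Het_M_125 was -0.78. It was also lost with limma, at -0.82 on log2(TPM + 1) (adjusted p = 0.0820) and -1.06 on log2(TPM + 0.1) (0.0676). The difference between the sexes, -0.61 (adjusted p = 0.699), did not pass the test. Foxa1 was read from 195 to 1012 counts per liver, the fewest of the 9 factors with Foxa2.

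Foxa2 was at 6.31, 21.3 and 20.5 CPM in Het females, 16.4, 30.7 and 19.1 in Het males, 9.61, 6.66 and 13.3 in KO females and 16.0, 13.1 and 19.4 in KO males. The genotypes overlapped, and the lowest of all 12 values was a Het liver, Het_F_111. Its log2 fold change of -0.57 (SE 0.30, adjusted p = 0.197) did not pass, with an interval of -1.23 to 0.085. It was -0.77 (adjusted p = 0.0284) without Het_F_111. Foxa3 was at 35.8, 64.0 and 42.1 CPM in Het females, 48.1, 64.2 and 50.3 in Het males, 49.8, 46.6 and 30.6 in KO females and 28.6, 41.9 and 27.2 in KO males. The 3 KO males lay below the 3 Het males, and in females the values were mixed. Its log2 fold change was -0.45 (SE 0.18, adjusted p = 0.0959) over both sexes, -0.16 (adjusted p = 0.727) in females and -0.73 (adjusted p = 0.109) in males, with no call. Without KO_M_122 the value over both sexes was -0.56 (adjusted p = 0.0498), and without Het_F_115 the female value turned to 0.11.

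Foxa3 was the largest contributor to the FOXA transcripts in each liver, at 54.7 to 76.7% of the summed TPM in Het and 51.8 to 80.3% in KO livers. Foxa1 made up 7.41 to 17.4% of the sum in Het and 5.94 to 10.5% in KO livers. The sum itself was 19.2 to 40.7 TPM in Het livers, with a median of 29.7, and 19.3 to 27.1 TPM in KO livers, with a median of 20.3. These shares and sums are descriptions, and no test was made of them.

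**Figure D2:**
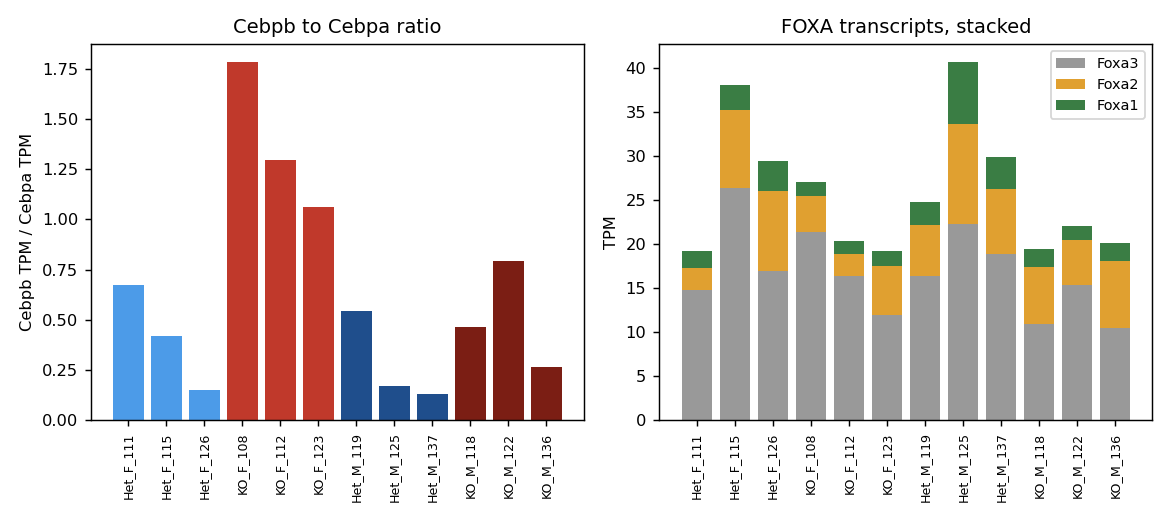
Left, the ratio of Cebpb to Cebpa TPM in each liver (bars from 0), and right, the TPM of Foxa3, Foxa2 and Foxa1 stacked in each liver (bars from 0). The ratio was above 1 in the 3 KO females only, and Foxa3 was the largest part of every FOXA stack.

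Hnf4a encodes the nuclear receptor most widely bound at hepatocyte genes. Its level was 561, 915 and 501 CPM in Het females, 736, 628 and 639 in Het males, 831, 662 and 776 in KO females and 543, 565 and 489.8 in KO males. The highest value was a Het female, Het_F_115, and the lowest a KO male, KO_M_136. In males the 3 KO livers lay below the 3 Het livers, an order that readily arises by chance, and in females they did not. Over both sexes its log2 fold change was -0.064 (SE 0.15, adjusted p = 0.794), and its interval of -0.39 to 0.26 leaves room for a modest change in either direction. The value was 0.20 (adjusted p = 0.580) in females and -0.33 (adjusted p = 0.382) in males, and the difference between them, -0.52 (adjusted p = 0.617), did not pass. Without Het_F_115 the value over both sexes turned to 0.083.

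Nr5a2 encodes LRH-1, a nuclear receptor of bile acid and cholesterol metabolism. It was at 75.8, 66.2 and 82.4 CPM in Het females, 62.1, 81.1 and 70.0 in Het males, 53.9, 63.1 and 44.3 in KO females and 65.1, 44.9 and 66.0 in KO males. All KO females lay below all Het females, and in males the values overlapped. A log2 fold change of -0.38 (SE 0.13, adjusted p = 0.0546) lay just outside the threshold, with an interval of -0.65 to -0.098. It passed with library size scaling alone (adjusted p = 0.0387), with length-scaled counts (0.0361), with counts that were not rounded (0.0488) and with DESeq2 (0.0411). It also passed without Het_F_115 (0.0484), Het_M_119 (0.0476) or KO_F_112 (0.0396), and over all alternatives and left-out mice its adjusted p ranged up to 0.112.

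Cebpb encodes C/EBP beta, the C/EBP factor of the acute phase response. It was at 68.7, 40.9 and 21.7 CPM in Het females, 87.9, 33.7 and 23.6 in Het males, 83.3, 81.3 and 56.7 in KO females and 44.6, 49.7 and 24.8 in KO males. Levels within a group spread widely, most of all in Het males. The log2 fold change was 0.23 (SE 0.37, adjusted p = 0.694) over both sexes, with an interval of -0.59 to 1.05, 0.75 (adjusted p = 0.383) in females and -0.29 (adjusted p = 0.794) in males. No call was made, and without Het_M_119 the male value turned to 0.46. The ratio of Cebpb to Cebpa, in TPM, was 0.128 to 0.674 in Het livers, with a median of 0.294, and 0.264 to 1.79 in KO livers, with a median of 0.926. It was 1.06 to 1.79 in KO females and 0.264 to 0.791 in KO males. Peds1, a gene on the opposite strand that overlaps Cebpb, had a log2 fold change of 0.35 (adjusted p = 0.163).

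Prox1 encodes a homeobox factor needed for hepatoblast migration, and in the adult liver also a corepressor of nuclear receptors. It was at 146, 253 and 147 CPM in Het females, 102, 98.6 and 186 in Het males, 86.5, 93.7 and 71.9 in KO females and 108.1, 52.6 and 158 in KO males. Each KO female lay below each Het female, whereas the males overlapped, with KO_M_136 and KO_M_118 above a pair of Het males. Its log2 fold change was -0.70 (SE 0.27, adjusted p = 0.0904) over both sexes, -1.11 (adjusted p = 0.0888) in females and -0.28 (adjusted p = 0.712) in males, and none passed. DESeq2 called Prox1 over both sexes (adjusted p = 0.0428) and in females (0.0286). Without KO_M_136 the value over both sexes was -0.91 (adjusted p = 0.0374), and without KO_M_122 the female value passed (0.0439). Prox1os, on the opposite strand, had a log2 fold change of -0.29 (adjusted p = 0.319).

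Onecut1 encodes HNF6, a factor of early liver and bile duct development. It was at 70.2, 22.8 and 30.6 CPM in Het females, 68.5, 142 and 50.3 in Het males, 9.79, 102 and 77.6 in KO females and 35.6, 58.1 and 20.5 in KO males. This was the most variable factor, with the lowest and the second highest of the 12 values both in KO females. Its log2 fold change was -0.29 (SE 0.54, adjusted p = 0.747), and the interval of -1.51 to 0.93 was the widest of the 9. Females were at 0.61 (adjusted p = 0.654) and males at -1.19 (adjusted p = 0.403), and without Het_F_111 the value over both sexes turned to 0.010.

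**Figure D3:**
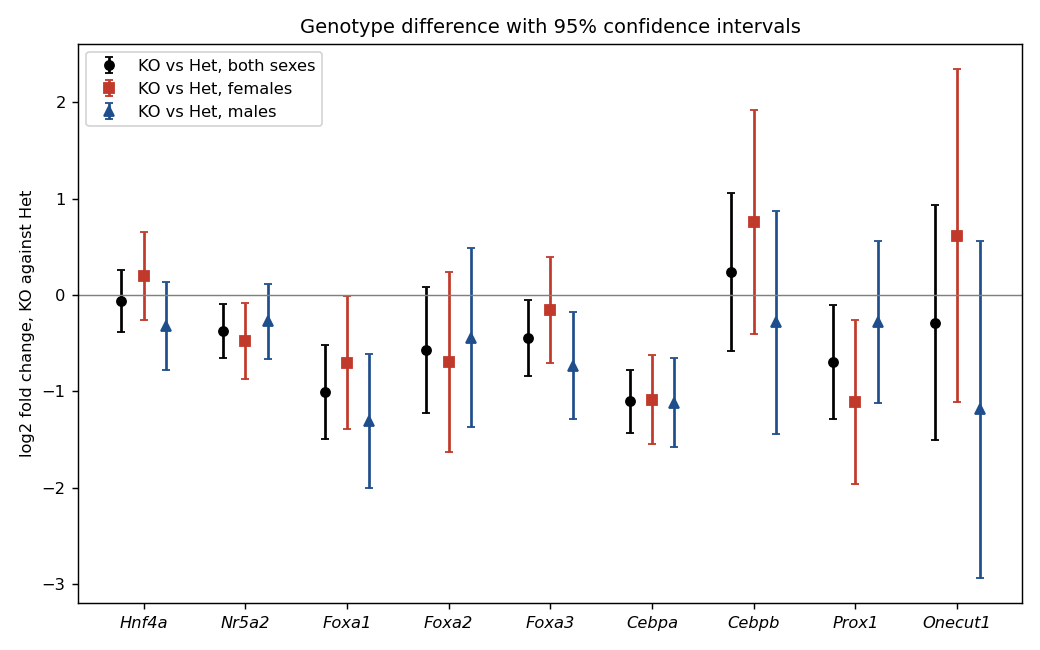
Log2 fold change of KO against Het (y axis) for each factor, over both sexes (black circles), in females (red squares) and in males (blue triangles), with 95% confidence intervals. All 3 intervals of Cebpa lie below 0, from -1.58 at the lowest to -0.62 at the highest, and those of Onecut1 are the widest.

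Within females 1 of the 9 factors was called, Cebpa, where 4.5% of all tested genes were lower, 5.15% higher and 9.65% called in either direction. Within males 2 were called, Cebpa and Foxa1, where 2.8% were lower, 4.11% higher and 6.9% called in either direction. No factor was called for the difference between the sexes by edgeR, where 0.0465% of tested genes were (0.0362% higher and 0.0103% lower), and none passed at an unadjusted p under 0.05, as 8.93% of tested genes did, or with DESeq2. Prox1 had its lower log2 fold change in females and Foxa3 in males, but the tests of the difference gave adjusted p of 0.671 and 0.655. No factor was called between males and females over both genotypes by edgeR, where 0.925% of tested genes were (0.434% higher and 0.491% lower in males). At an unadjusted p under 0.05, passed by 13.5% of tested genes (6.53% higher in males), there were 2, Cebpa, with males higher by 0.66 (SE 0.15, adjusted p = 0.0698) on the log2 scale, and Foxa1, with males higher by 0.62 (SE 0.22, adjusted p = 0.252). DESeq2 called Cebpa (adjusted p = 0.00321), and edgeR did so without Het_F_126 (0.0196) or KO_M_122 (0.0386).

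Many of the other transcription factors of the liver fell in KO livers. Of 22 such genes tested, 11 fell and none rose (50% called lower, against 9.8% of all tested genes), with a median log2 fold change of -0.38. They include Nr1h4, the bile acid receptor FXR, at 101 ± 7.37 CPM in Het and 50.2 ± 12.9 in KO livers (SD, n = 6 each), and its log2 fold change was -1.03 (SE 0.16, adjusted p = 0.00146). Ppara, the receptor that drives fatty acid oxidation, went from 206 ± 41.1 to 80.6 ± 29.4 CPM, with a log2 fold change of -1.37 (SE 0.23, adjusted p = 0.00230). Both had every KO liver below every Het liver. The other 9 that fell were Nr2f2, Creb3l3, Gata4, Mlxipl, Zbtb20, Rxra, Nr0b2, Zhx2 and Tbx3. Within females 5 of the 22 fell (22.7%, against 4.5% of all tested genes) and within males 4 (18.2%, against 2.8%).

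Among 9 tested bZIP proteins related to C/EBP or able to pair with it, 3 rose (Junb, Fosl2 and Atf4) and none fell, with a median of 0.39. That is 33.3% called higher, against 11.8% of all tested genes. Junb, an AP-1 subunit induced by growth and cytokine signals, went from 36.0 ± 13.6 to 96.7 ± 56.3 CPM, with overlapping genotypes. Its log2 fold change was 1.30 (adjusted p = 0.0188) over both sexes, 2.27 (adjusted p = 0.0195) in females and 0.32 (adjusted p = 0.721) in males. Fosl2, another AP-1 subunit, changed by 1.87 (SE 0.47, adjusted p = 0.0204) over both sexes, with KO livers from 14.5 to 219 CPM. All 3 were called in females, where 5.15% of all tested genes were called higher. None of the 9 was called in males by edgeR or DESeq2, where 1 passed at an unadjusted p under 0.05, as 23.5% of tested genes did. Of 12 coactivators and corepressors, 2 fell and none rose (16.7% called, against 9.8% of all tested genes lower and 21.6% in either direction). These were Ncor1, a nuclear receptor corepressor, with a log2 fold change of -0.34 (SE 0.081, adjusted p = 0.0118), and Hdac3, the histone deacetylase it recruits, with a log2 fold change of -0.33 (SE 0.083, adjusted p = 0.0163), both small changes with no overlap between the genotypes.

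Of the 4 lists of genes known to be bound or activated by HNF4A, FOXA factors, C/EBP alpha or NR5A2, 3 had a share of called genes near that of all tested genes (21.6%). It was 28.1% of HNF4A targets, 20% of FOXA targets, 20% of C/EBP alpha targets and 54.5% of the 11 NR5A2 targets. These shares pool both directions. Over all tested genes 9.8% were called lower and 11.8% higher, whereas the called HNF4A, C/EBP alpha and NR5A2 targets were mostly lower. The called FOXA targets were mostly higher. Of 32 HNF4A targets, 2 rose and 7 fell, with a median of -0.081. Lipc, hepatic lipase, fell from 148 ± 20.1 to 47.1 ± 18.3 CPM, with a log2 fold change of -1.67 (SE 0.23, adjusted p = 8.51e-04), and Abcg5, a sterol exporter, rose from 80.3 ± 21.5 to 129 ± 20.6 CPM, with a log2 fold change of 0.69 (SE 0.17, adjusted p = 0.0134). Apoa4, an apolipoprotein of triglyceride-rich particles, also rose, with a log2 fold change of 1.37 (adjusted p = 0.0296). Ttr, the thyroid hormone carrier transthyretin and a target on 3 of these lists, fell from 3465 ± 309 to 2002 ± 587 CPM, with a log2 fold change of -0.81 (SE 0.16, adjusted p = 0.00439). Of 15 FOXA targets, 2 rose and 1 fell, with a median of 0.13. The risers were Afp, alpha-fetoprotein, at 0.585 to 1.01 CPM in Het and 5.92 to 22.6 CPM in KO livers, with a log2 fold change of 3.92 (SE 0.28, adjusted p = 1.07e-05), and Trf, transferrin, with a log2 fold change of 0.62 (adjusted p = 0.0160). Of 15 C/EBP alpha targets, none rose and 3 fell, with a median of 0.067, among them Cyp2e1, an ethanol-metabolizing cytochrome P450 of pericentral hepatocytes, with a log2 fold change of -0.77 (SE 0.16, adjusted p = 0.00745). Of 11 NR5A2 targets, 2 rose and 4 fell, with a median of 0.058. Serpina1c, an alpha-1 antitrypsin gene with near-identical copies between which reads can be split, changed by -1.19 (SE 0.17, adjusted p = 7.96e-04), and Dgat2, a triglyceride synthesis enzyme, by -0.55 (adjusted p = 0.0200). Scarb1, the HDL receptor, rose by 0.29 on the log2 scale (adjusted p = 0.0302).

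Acute phase genes, known targets of C/EBP beta, mostly rose in KO livers. Of 16 such genes 11 rose and none fell (68.8% called higher, against 11.8% of all tested genes), with a median of 0.73. In 8 of them every KO liver lay above every Het liver, an order found for 4.71% of tested genes. Lcn2, an iron-siderophore-binding protein of inflammation, was at 0.960 to 20.8 CPM in Het and 92.3 to 191 CPM in KO livers, with a log2 fold change of 4.68 (SE 0.48, adjusted p = 3.17e-04). Orm2, an orosomucoid gene with close copies between which reads can be split, changed by 3.48 (SE 0.30, adjusted p = 6.26e-05). The rises were 6 in females and 6 in males (37.5% each, against 5.15% and 4.11% of all tested genes). Cebpb itself, with the values above, was not called. Of 11 tested fetal and progenitor genes, 5 rose and none fell (45.5% called higher, against 11.8% of all tested genes), with a median of 0.80. These were Afp, H19, Igf2, Igf2bp3 and Prom1, of which Igf2, a fetal growth factor, was at 0.234 to 0.389 CPM in Het livers and 0.554 to 2.60 CPM in KO livers, with a log2 fold change of 1.61 (SE 0.28, adjusted p = 0.00248). Of 9 tested factors linked to mesenchymal transition, Klf6 rose, with a log2 fold change of 1.64 (adjusted p = 0.0102), and Zeb1 and Zeb2 fell, with -0.51 (adjusted p = 0.00133) and -0.52 (adjusted p = 0.0345). The called share of these factors was 33.3%, against 21.6% of all tested genes in either direction. The lists share genes with each other, so their counts are not independent.

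**Figure D4:**
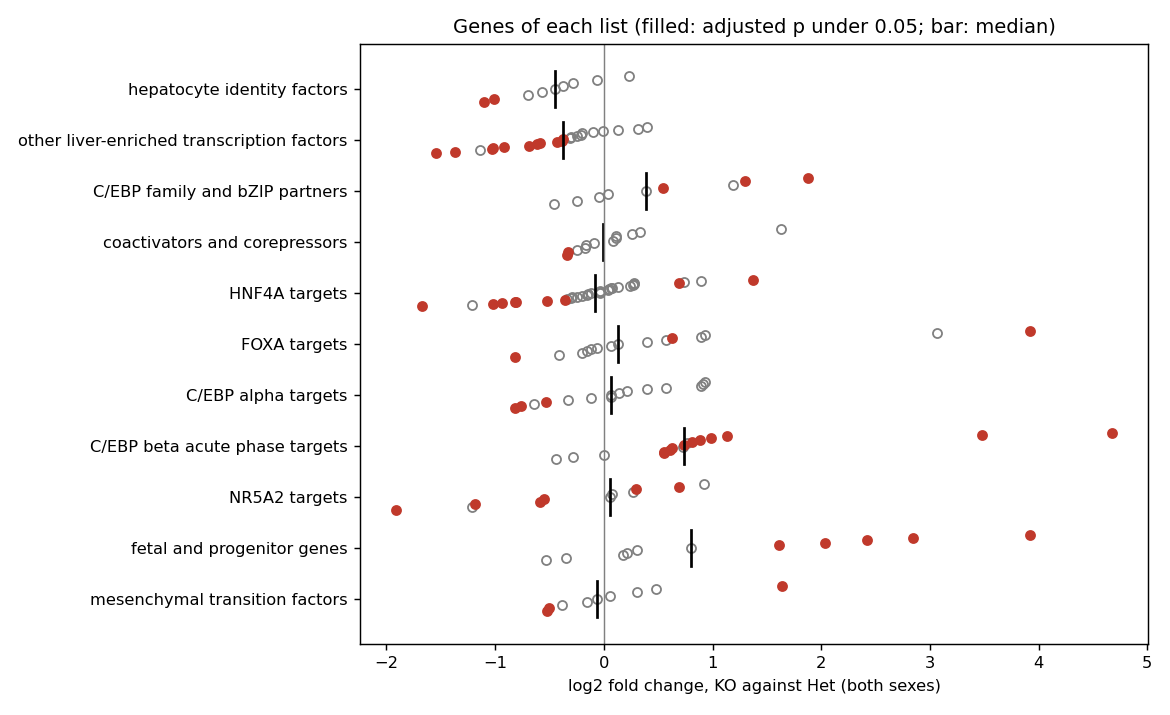
Log2 fold change of KO against Het over both sexes (x axis) for the tested genes of each list, 1 point per gene, filled where called, with a bar at the median of the list. The other liver-enriched factors have 11 filled points, all below 0, and the acute phase list has 11, all above 0.

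Markers of some other cell types moved with genotype as well. Pooling both directions, 46.2% of endothelial, 54.5% of Kupffer cell, 35% of hepatocyte and 100% of the 3 tested acinar markers were called. The background over tested genes was 21.6% (11.8% higher, 9.8% lower). Neutrophil and monocyte (22.2%), erythroid (16.7%), cholangiocyte (8.33%) and T, NK and B cell markers (0%) were near or below that 21.6%. Of 13 endothelial markers 6 fell and none rose, with a summed TPM of 45.6 to 107.7 in Het livers and 40.4 to 67.4 in KO livers. Of 12 stellate cell markers 3 fell (Lrat, Reln and Ngfr), with sums of 48.9 to 106 and 53.5 to 90.7 TPM. Of 11 Kupffer cell markers 6 rose and none fell, with sums of 67.3 to 212 and 106 to 312 TPM. Of 9 tested neutrophil and monocyte markers 2 rose (Itgam and S100a8), with sums of 10.04 to 53.2 and 20.7 to 57.6 TPM, and Elane, Ly6g and Mpo had too few reads to test. Of 12 cholangiocyte markers only Pkhd1 was called, lower, with sums of 28.4 to 48.9 and 18.5 to 38.9 TPM. Of 11 T, NK and B cell markers none was called by edgeR or DESeq2, with 1 at an unadjusted p under 0.05 and sums of 2.23 to 22.9 and 2.50 to 11.6 TPM. Of 6 tested erythroid markers Alas2 fell, with sums of 136.3 to 778 and 131 to 371 TPM. Of 11 pancreatic acinar markers 3 had enough reads to test, with 2 higher and 1 lower, sums were 8.79 to 21.6 and 6.22 to 9.69 TPM, and Cpa1, Cpb1, Cel, Ctrc, Prss2 and Pnlip were at 0 in every liver. Of the 20 hepatocyte markers 5 rose and 2 fell. Over both sexes together the sums overlapped between genotypes for each of these lists, but within a sex several did not. With 3 livers against 3, such a separation can readily arise by chance. KO livers of each sex lay above Het livers of that sex in summed Kupffer cell markers, at 229 to 312 against 155 to 212 TPM in females and 106 to 297 against 67.3 to 88.1 TPM in males. Abundant genes weigh most in such a sum. Of the 11 Kupffer cell markers edgeR called none in females, with 1 at an unadjusted p under 0.05, and 4 higher in males. Summed hepatocyte markers of KO livers also lay above those of Het livers in each sex, at 52699 to 72379 against 48507 to 52276 TPM in females and 49247 to 61414 against 33693 to 41972 TPM in males. In females alone KO livers lay below Het livers in endothelial markers (53.8 to 57.8 against 82.5 to 107.7 TPM), stellate cell markers (53.5 to 60.4 against 93.5 to 106 TPM) and pancreatic acinar markers (6.22 to 7.20 against 8.79 to 11.2 TPM). In males alone they lay above in neutrophil and monocyte markers (20.7 to 45.3 against 10.04 to 17.2 TPM). The part of cell composition in the falls of Cebpa and Foxa1 was not tested.

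Of the transcripts that lie next to or opposite the factors, 3 were tested and 1 fell (33.3%, against 9.8% of all tested genes called lower). 9030622O22Rik, which lies 2227 bases past the end of Foxa2 on the same strand, was at 40.7 to 152 CPM in Het and 16.6 to 78.3 CPM in KO livers, with a log2 fold change of -1.23 (SE 0.28, adjusted p = 0.0107). It was called in females, at -1.52 (adjusted p = 0.0371), and not in males, at -0.95 (adjusted p = 0.169), and its genotypes overlapped. Hnf4aos, opposite Hnf4a, was not called, at -0.60 (adjusted p = 0.169). The libraries mark strand, but the strand setting of the counting was not checked here.

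The genes whose pattern over the 12 livers was most like that of each called factor were found by the root mean square difference of log2 CPM, after each gene was centred on its mean. For Cebpa these were Mn1 (0.195), Atp23 (0.217) and Scnn1a (0.232), against a spread of Cebpa itself of 0.71 (SD of log2 CPM, n = 12). For Foxa1 they were 1700066M21Rik (0.266), Ugt2b5 (0.300) and Ldah (0.317), against a spread of 0.69. All 6 were called lower in KO livers, with log2 fold changes of -1.37 (Mn1), -0.95 (Atp23), -1.10 (Scnn1a), -0.93 (1700066M21Rik), -0.93 (Ugt2b5) and -0.64 (Ldah). Likeness was sought over the same livers in which the factors were tested, so these changes are descriptions.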

How the data were processed

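The authors sequenced stranded libraries of ribosomal RNA-depleted total RNA from 12 livers. Per the submitters' processing notes and the study's methods, reads were aligned with STAR 2.7.9a to GRCm39 and quantified with Salmon 1.10.1 against GENCODE M34. The authors deposited estimated counts per gene, TPM, and scaled estimated counts. Estimated counts, of which 12% were not whole, were rounded and fitted with edgeR 4.0.16 (R 4.3.3): TMM scaling, at least 5 reads scaled to the median library in at least 3 livers, 4 group means, robust quasi-likelihood F test, prior count of 2. The genotype contrast averages KO minus Het over the sexes, and the interaction is the male minus the female effect. Standard errors came from the F statistic. Samples were grouped by the labels, with 3 mice per group. The tests set each difference against the spread between mice, estimated from all 4 groups together and adjusted using the other genes. The fit was also run on counts simulated from its own means and spread, which cannot show whether the model suits these livers.

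Deposited TPM served for levels between genes and, as log2(TPM + 1) and log2(TPM + 0.1), for limma 3.58.1. Other alternatives were DESeq2 1.42.0, other scalings and filters, counts that were not rounded or length-scaled by the authors, no robust estimation, no interaction term, and leaving out each mouse. The third estimated count table was not used. The factors, gene lists and tests were chosen with earlier results of these data known. Named genes were the 9 factors, Xpa, Ercc8, of each list other than cell type markers the 2 called higher and the 2 called lower of smallest p, and the 3 most like each called factor. Members of a list that are named without values, Gm45091 and Peds1 were named after their values were seen. G6pc and Trf replaced the list symbols G6pc1 and Tf, as the tables spell them. Foxa2os, Cebpaos, Gm38521 and Gm14139 matched no name in the tables. Sequences were read from GRCm39 with GENCODE M39, a later release than the authors'. The result of 1 stellate cell marker is not reported here.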

Additional observations from a re-analysis of the deposited data

Results flagged for a closer look

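Foxa1 in Het_M_125, at 32.9 CPM, stood apart from the other 5 Het livers, whose highest value was 15.5 CPM. Its gap to the nearest liver was 0.690 of the range of the 6 Het livers, above Dixon's 95% critical value for a group of that size. Of 18 sets of 6 livers looked at (9 factors in 2 genotypes) this was the only one past that value, and chance alone passes about 1 in 20. The cause was not tested.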

How the results depend on the processing

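The labels do not give the litter of each mouse, so mice were not paired by litter, and the p-values take no account of litters. The calls of Cebpa and Foxa1 over both sexes held under all 11 alternative settings and with each of the 12 mice left out, with log2 fold changes of -1.17 to -0.995 (Cebpa) and -1.15 to -0.65 (Foxa1). Length-scaled counts, counts that were not rounded and library size scaling alone each called 3 factors over both sexes, with Nr5a2 in addition. DESeq2 called 4 factors over both sexes, 2 in females and 1 between the sexes over both genotypes, and 3174 genes in females, 2260 in males, 162 for the interaction and 725 for sex, against 1867, 1336, 9 and 179 with edgeR. Limma on log2(TPM + 1) and on log2(TPM + 0.1) each called 1 factor in males, without Foxa1, and 48 and 30 genes for the interaction. That count was 17 with relative log expression scaling, 20 without a filter, 14 with at least 10 reads in every library and 22 without robust estimation. The sex contrast called 1 factor without a filter, and 102 genes with at least 10 reads in every library and 96 with no interaction term. With each mouse left out in turn, genes called ranged from 2961 to 4141 over both sexes (4175 with all mice), 699 to 2549 in females, 487 to 1759 in males, 4 to 82 for the interaction (82 without KO_F_123) and 101 to 308 for sex. Fewer mice enter these fits. Factors called ranged from 2 to 3 over both sexes, 1 to 2 in females, 1 to 2 in males, 0 for the interaction and 0 to 1 for sex. FOXA targets called were 5 with limma on log2(TPM + 1), mesenchymal transition factors 1 and cholangiocyte markers 2. With DESeq2, run on the lists after the data were seen, 6 FOXA targets and 5 C/EBP alpha targets were called, against 3 and 3 with edgeR. Ranked by CPM in place of TPM, 4 of the 9 factors kept their place in Het livers, since CPM does not divide by length. Scaling moved the median log2 fold change of all genes by less than 0.1. Foxa1 and Foxa2 were read from the fewest counts, and Onecut1 and Cebpb had the widest intervals. With 3 mice per group the precision of every value is limited. The causes of the other changes were not tested.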
